A study of Homo sapiens with 6 samples.

Results

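RNA polymerase III (Pol III) is the nuclear enzyme that makes transfer RNAs, the 5S ribosomal RNA and a set of other short non-coding RNAs. It is placed on these genes by general factors, whose own genes are transcribed by RNA polymerase II. The chromatin of 10 such genes was examined here, out of 20033 protein-coding genes annotated in GENCODE 44. They were the 6 subunits of TFIIIC (GTF3C1 to GTF3C6), the TFIIIB components BRF1 and BDP1, the catalytic subunit POLR3A and the repressor MAF1. They were chosen by measured values of these same lists, because the highest fold in the acetylation list of treated cells lies at GTF3C6, and the other 9 by their part in the same machinery. All values below are therefore a description, and the place of GTF3C6 at the top of that list is what selected it. Members were counted as marked when a peak shared at least 1 bp with the gene extended by 5 kb on each side.

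The data were ChIP-seq peak lists from cells labelled HepG2, a human liver tumour line. Control cells received no sodium benzoate (SB), and SB cells were kept in 10 mM SB for 24 h. The antibodies were directed against acetylated lysine (Kac) and benzoylated lysine (Kbz) on any protein site, so a peak cannot be assigned to a protein or a residue. Of 6 libraries in 6 groups, the lists of control Kac (70326 peaks), SB Kac (63282) and SB Kbz (24308) were used, each from 1 library. Per the labels, no peaks were called in the control Kbz library, and the input libraries of both conditions were not analysed here. With 1 library per group there is no replicate error and no test between groups, and the read depth behind each list is unknown. A peak may be missing from a list because it fell below the caller's threshold, so absence of a peak is not absence of the mark. The label was checked against 10 liver marker genes. Of these, 9, among them ALB, AFP, APOA1, APOB and HNF4A, had no peak over the transcription start site (TSS) in any list. Of 12 markers of blood, neurons and glia, and muscle, 2 had a Kac peak over the TSS in both conditions and 0 had Kbz. Anywhere within 5 kb of the gene, 6, 7 and 4 of the 10 liver genes had a peak in control Kac, SB Kac and SB Kbz, against 9, 9 and 6 of the 12 other markers and 82.6%, 81.4% and 72.3% of all coding genes. Most defining liver markers thus had no peak over their start, and the cells are named below only as labelled.

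TFIIIC recognises the internal promoter elements of transfer RNA genes and recruits TFIIIB, which in turn places Pol III at the start. BRF1 bridges the polymerase and the promoter, BDP1 completes TFIIIB, and POLR3A carries the active site. MAF1 binds the polymerase and holds it back when nutrients are short. Histone acetylation marks open promoters and enhancers, and lysine benzoylation is a related acyl mark fed by benzoyl-CoA.

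The sequences just upstream of 4 of these genes are shown because they lie under peaks of all 3 lists and represent the strongest peak (GTF3C6), the lowest ranked Kbz peak over a TSS (GTF3C1), TFIIIB (BDP1) and the polymerase (POLR3A). They come from RefSeq (GRCh38.p14), which held a matching start for 9 of the 10 genes. Stretches that an annotated exon covers were left out. Capitals mark the letters of 6 motifs, searched on both strands. These were the ETS core CCGGAAG, the cyclic AMP response element (CRE) TGACGTCA, the E-box CACGTG, the CCAAT box, the GC box GGGCGG and the TATA box TATAAA.

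GTF3C6 (chr6:110958456-110958705, plus strand): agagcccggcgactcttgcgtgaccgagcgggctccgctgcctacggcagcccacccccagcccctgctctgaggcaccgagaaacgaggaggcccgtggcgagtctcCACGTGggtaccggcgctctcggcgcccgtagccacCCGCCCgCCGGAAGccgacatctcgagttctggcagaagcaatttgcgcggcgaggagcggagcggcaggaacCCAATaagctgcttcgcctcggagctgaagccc

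GTF3C1 (chr16:27549914-27550132, minus strand): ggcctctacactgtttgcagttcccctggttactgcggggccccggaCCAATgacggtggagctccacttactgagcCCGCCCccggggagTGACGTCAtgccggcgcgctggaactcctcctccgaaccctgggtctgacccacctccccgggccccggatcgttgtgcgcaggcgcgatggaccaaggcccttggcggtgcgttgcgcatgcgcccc

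BDP1 (chr5:71455401-71455650, plus strand): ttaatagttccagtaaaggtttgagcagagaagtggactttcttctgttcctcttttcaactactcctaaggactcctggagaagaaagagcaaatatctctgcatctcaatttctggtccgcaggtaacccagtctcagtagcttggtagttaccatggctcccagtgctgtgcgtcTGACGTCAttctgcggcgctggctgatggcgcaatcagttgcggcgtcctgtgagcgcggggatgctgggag

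POLR3A (chr10:78029523-78029765, minus strand): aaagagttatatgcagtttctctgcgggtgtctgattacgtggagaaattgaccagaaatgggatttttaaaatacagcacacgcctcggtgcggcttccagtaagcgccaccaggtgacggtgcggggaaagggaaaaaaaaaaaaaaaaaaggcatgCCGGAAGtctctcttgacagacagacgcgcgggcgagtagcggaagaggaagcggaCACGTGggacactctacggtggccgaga

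In the full 250 bases upstream, the ETS core stood in 3 of the 9 genes, GTF3C1, GTF3C6 and POLR3A, and in 8.48% of 34943 RefSeq promoters. The CRE was found in GTF3C1 and BDP1, against 1.63% of all promoters. The E-box was found in GTF3C2, GTF3C6 and POLR3A, against 6.32%. The TATA box letters were found in GTF3C3, against 10.8%, on the strand opposite to the gene at -115 to -110 bp from the TSS. The GC box was found in 5 of the 9, against 42.5%, and the CCAAT box in 2, against 32.0%. No motif overlapped another in the 4 printed stretches. The windows were rich in CpG dinucleotides. Their number ranged from 10 in BDP1 to 29 in GTF3C6 with a median of 20.0 over the 9 genes, and the median over all promoters was 11.0. A match of letters is a description and does not show that a factor binds there.

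All 10 genes carried peaks of all 3 lists within their extended bodies. Over all protein-coding genes this held for 82.6% with control Kac, 81.4% with SB Kac, 72.3% with SB Kbz and 71.5% with all 3. Without the extension 9 members had Kbz, since the only Kbz peak of MAF1 ended before the gene began. The narrower question was whether a peak covered the canonical TSS. Control Kac covered it in 10 of 10 genes, against 59.1% of all coding genes, and SB Kac in 10 of 10, against 60.4%. SB Kbz covered it in 8 of 10, against 45.8%. BRF1 and MAF1 were the exceptions. All 3 lists covered the TSS in 8 of 10 members and in 44.8% of coding genes.

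**Figure D1:**
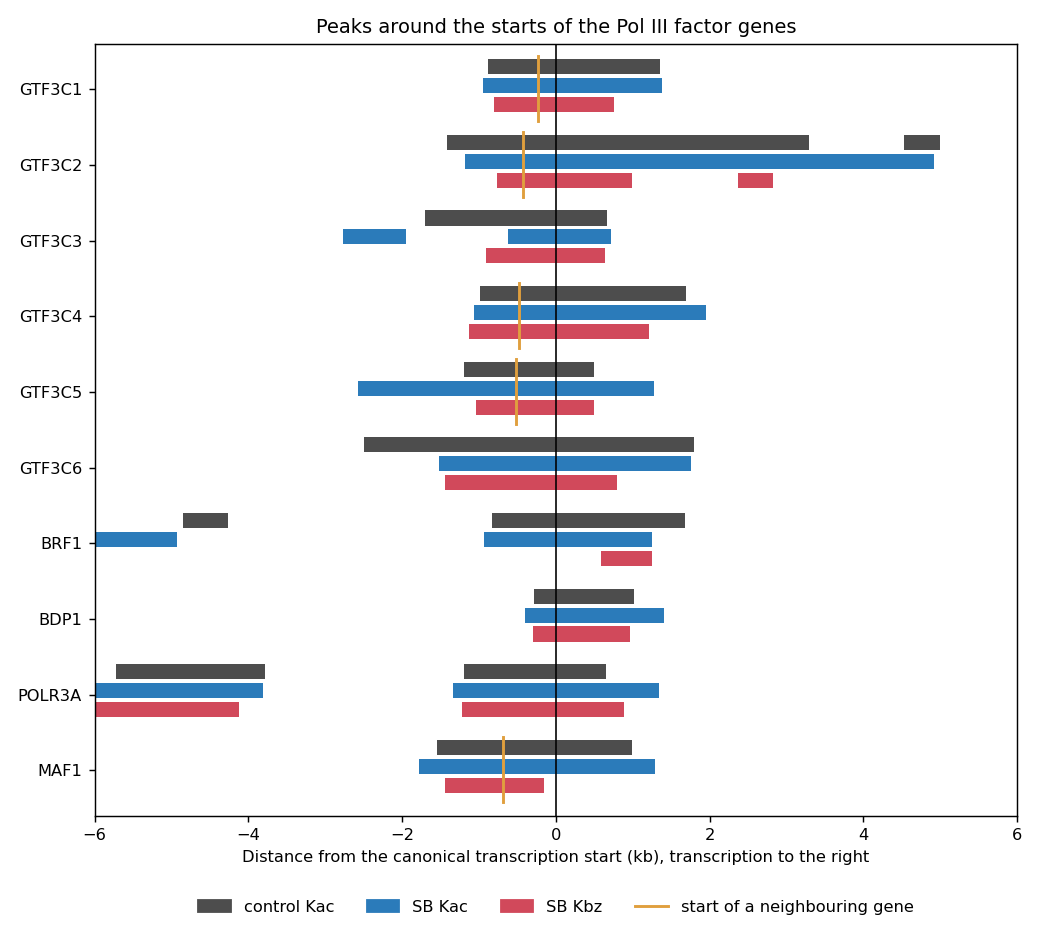
Peaks of control Kac, SB Kac and SB Kbz by distance in kb from each gene's canonical TSS, drawn to scale with transcription to the right. Each bar is a peak, cut at the plot's edges, the black line is the TSS, and the orange line is the canonical TSS of another gene within 1 kb. The Kbz bar of BRF1 lies to the right of the TSS and that of MAF1 to the left.

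The fold of a peak, a ratio of read density over background set by the peak caller, is not comparable between libraries of unknown depth. It is therefore given below as a percentile within its own list, where the peak of highest fold stands at 100. Among the genes of TFIIIC, GTF3C6 (hg38 chr6:110958706-110967890, plus strand), which encodes the smallest subunit, stood highest. By fold its TSS peak was at rank 35 of 70326 peaks in control Kac, at rank 1 of 63282 in SB Kac and at rank 26 of 24308 in SB Kbz. The gene was thus near the top of each list. In the whole lists 93.7% of SB Kbz and 64.7% of control Kac peaks overlapped an SB Kac peak. The ranks in those lists are therefore not independent of the choice. The fold was 11.1 in both SB lists. The next SB Kac peak had a fold of 11.0, and by −log10 p the GTF3C6 peak was at rank 2. Its Kac peak was shorter in the SB list. It reached 2493 bp upstream of the TSS in control cells and 1527 bp in SB cells, whereas the downstream reach was 1799 and 1753 bp. The Kbz peak, from 1446 bp upstream to 797 bp downstream, lay wholly inside both Kac peaks and covered 68.4% of the SB Kac peak. The upstream sequence printed above lies within all 3 peaks. No other gene started within 1 kb.

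Of 8958 other coding genes with all 3 marks over the TSS, the 3 with percentiles nearest to those of GTF3C6 were MPZL3, NUP205 and MRPL19. The distances over the 3 lists were 0.131, 0.173 and 0.185 percentile points.

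GTF3C4 (hg38 chr9:132670035-132694953, plus strand), a TFIIIC subunit for which acetyltransferase activity has been described, came second in the complex. It reached percentile 97.5 in control Kac, and after SB 99.3 for Kac and 98.0 for Kbz. The peaks had a length of 2685, 3028 and 2348 bp, and all of them also covered the start of the helicase gene DDX31, 481 bp upstream on the other strand. The marks at this pair cannot be assigned to one of the genes.

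GTF3C2 (hg38 chr2:27325849-27356999, minus strand), part of the module that contacts the B box of transfer RNA genes, stood at percentile 85.9 in control cells and, after SB, at 95.3 for Kac and 93.2 for Kbz. In control cells the TSS peak, 4706 bp long, and a separate intronic peak of 463 bp lay where SB Kac formed a single peak of 6093 bp. Kbz was split there into a peak of 1751 bp over the TSS and one of 462 bp in an intron, 2366 to 2827 bp downstream. The antisense gene GTF3C2-AS2 starts 424 bp upstream, under all 3 TSS peaks.

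GTF3C3 (hg38 chr2:196763035-196799725, minus strand), which links TFIIIC to TFIIIB, stood at percentile 75.9 in control cells and, after SB, at 98.0 for Kac and 91.3 for Kbz. This difference of 22.1 percentile points between the Kac lists was the widest among the 10 genes. The TSS peak was at the same time shorter, 1344 bp in SB against 2373 bp in control cells, because its upstream edge lay at 623 instead of 1707 bp. The fold is an average over the peak, so a longer peak with weak flanks can stand lower. Whether this accounts for the difference was not tested. A weak SB Kac peak of 818 bp at percentile 20.2 appeared further upstream. Kbz reached 904 bp upstream, past the edge of the SB Kac peak, and 81.7% of its bases were inside SB Kac.

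GTF3C5 (hg38 chr9:133030675-133058503, plus strand) stood at percentile 83.7 in control cells and, after SB, at 90.4 for Kac and 75.8 for Kbz. The SB Kac peak was 3853 bp long, against 1690 bp in control cells, and reached 2573 bp upstream against 1194 bp. Kbz, 1535 bp long, kept to the limits of the control Kac peak, which held 99.7% of its bases. The start of a non-coding gene without a symbol lay 523 bp upstream, under all 3 peaks.

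GTF3C1 (hg38 chr16:27459555-27549913, minus strand), the largest TFIIIC subunit, was the lowest of the complex. It stood at percentile 57.9 in control cells and, after SB, at 78.8 for Kac and 30.0 for Kbz. The Kac peaks had almost the same limits, and 95.7% of the bases of the SB peak lay in the control peak. KATNIP starts 231 bp upstream on the other strand, under all 3 peaks. A further Kbz peak of 1918 bp lay in an intron, 18301 to 20218 bp downstream. It had no Kac peak in either condition and stood at percentile 10.4. It was the only one of 22 Kbz peaks at the 10 genes with no SB Kac peak.

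**Figure D2:**
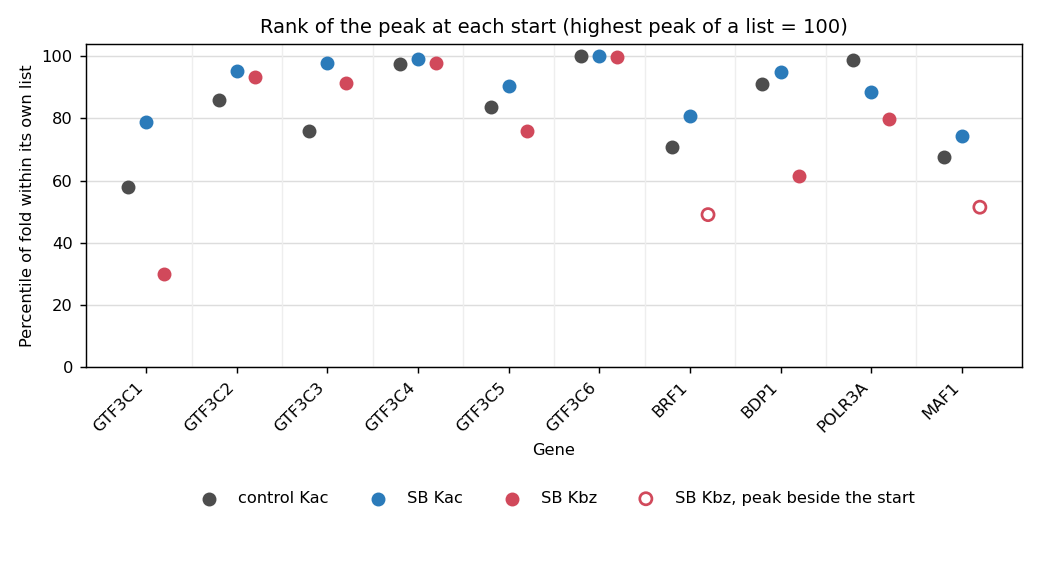
Percentile of fold, within its own list, of the peak at the canonical TSS of each gene in control Kac, SB Kac and SB Kbz, with 1 point per gene and library. Filled points are peaks over the TSS, and open points are the Kbz peaks nearest to it for BRF1 and MAF1. The points of GTF3C6 lie at the top in all 3 lists, and the blue points lie above the dark ones in all genes but POLR3A and, by a margin too small to see, GTF3C6.

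The TFIIIB genes differed from each other. BDP1 (hg38 chr5:71455651-71567820, plus strand), at 112 kb the longest gene of the list, had 1 peak in each list, all of them over the TSS. Kac stood at percentile 91.0 in control and 94.9 in SB cells, and Kbz at 61.5. The control Kac peak spanned 1312 bp and the Kbz peak 1262 bp, with upstream edges 292 and 301 bp from the TSS. No peak lay anywhere else in the gene, so peaks covered 1.07%, 1.48% and 1.03% of its window.

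BRF1 (hg38 chr14:105209286-105315589, minus strand), of nearly equal length at 106 kb, was marked along its body. It held 11 control Kac, 19 SB Kac and 7 SB Kbz peaks, which covered 14.6%, 18.1% and 3.61% of its window. It has 20 annotated start sites, and its canonical TSS lies inside the gene's outer limits. The canonical TSS was under Kac in both conditions, at percentile 70.8 in control and 80.7 in SB cells. Kbz did not cover it. The nearest Kbz peak, 662 bp long and at percentile 49.0, ran from 583 to 1244 bp downstream and lay inside both Kac peaks. The highest peaks of the gene were not at a start. An intronic element held Kac at percentile 89.9 in control and 96.9 in SB cells, and Kbz at 91.9. Its peaks ran from 24956 to 26319 bp, from 24865 to 25858 bp and from 24927 to 25649 bp downstream of the canonical TSS. Outside the canonical TSS, 2 further annotated starts of the gene had Kac in both conditions. The inner one, under a control peak that began 51203 bp downstream, stood at percentile 71.3 in control and 89.1 in SB cells, and the outermost one at 51.1 and 62.6. Whether other genes also start under the peaks at these 2 starts was not examined, so these peaks cannot be assigned to BRF1 alone. Of the 19 SB Kac peaks 8 had no control Kac peak, and 2 of these, 573 and 700 bp long, overlapped Kbz peaks. They lay in introns at percentiles 61.1 and 68.8. The control Kac list held 1 peak here that had no SB Kac peak, at percentile 2.48.

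**Figure D3:**
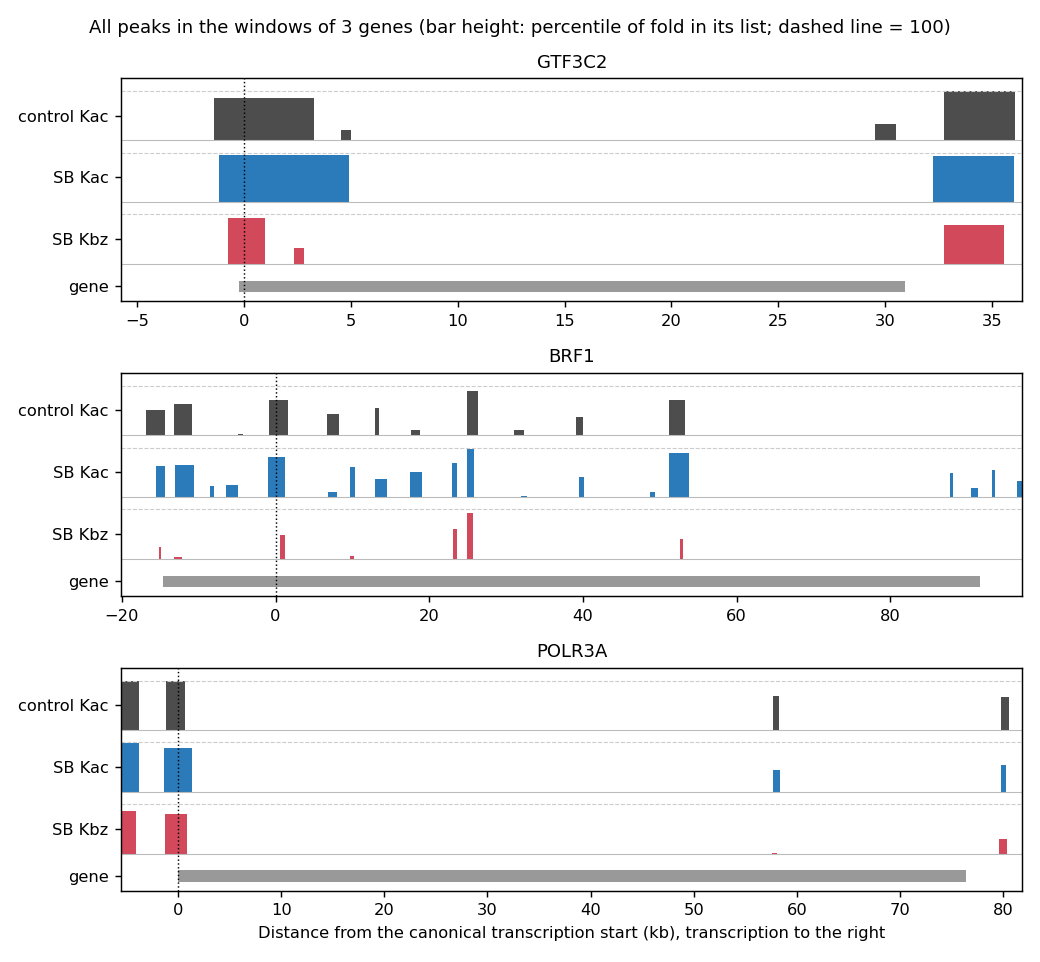
All peaks in the windows of GTF3C2, BRF1 and POLR3A, by distance from the canonical TSS in kb with transcription to the right. Bar width is the length of the peak, bar height its percentile of fold with the dashed line at 100, and the grey bar is the annotated gene. Bars at the plot's edges are cut. BRF1 shows peaks along its body, while those of GTF3C2 and POLR3A are few.

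POLR3A (hg38 chr10:77953148-78029522, minus strand), the catalytic subunit, was the only member whose percentile was lower in SB Kac. Its TSS peak stood at percentile 98.7 in control cells and, after SB, at 88.6 for Kac and 79.7 for Kbz. The SB Kac peak was at the same time longer, 2670 bp against 1847 bp, so the limit given for GTF3C3 applies here too. A peak in all 3 lists, at percentiles 98.3, 98.2 and 86.7, lay in the same window over the start of the ribosomal protein gene RPS24. A short intronic element, from 57673 to 58288 bp downstream in control cells, was present in all lists. Kac stood there at percentile 68.3 in control and 43.3 in SB cells, and Kbz at 1.33.

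MAF1 (hg38 chr8:144104461-144107611, plus strand), on chromosome 8 and at 3.15 kb the shortest gene, stood at percentile 67.6 in control cells and, after SB, at 74.5 for Kac and 51.4 for Kbz. Both Kac peaks covered its TSS and that of SHARPIN, 688 bp upstream on the other strand. The Kbz peak, 1290 bp long, covered the SHARPIN start only. It ran from 1444 to 155 bp upstream of MAF1 and lay wholly inside both Kac peaks. Thus the repressor of Pol III was one of the 2 members whose TSS had Kac in both conditions and no Kbz peak over it. Among coding genes with both Kac lists over the TSS, 19.7% lacked Kbz there.

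Set side by side, the percentile of the TSS peak was higher in SB Kac than in control Kac in 9 of 10 genes, all but POLR3A. Over all coding genes with both peaks this held for 65.6%. GTF3C6 was chosen by its SB Kac peak and could not be lower there, and without it the count was 8 of 9. The median change was 6.8 percentile points for the members, 6.9 without GTF3C6 and 2.6 for coding genes. The SB Kac peak was longer in 7 of 10 genes, against 54.1% of coding genes. Where Kbz covered the TSS its percentile was below that of SB Kac in 8 of 8 genes, or 7 of 7 without GTF3C6, which was also the case in 93.7% of coding genes. The lists hold 24308 Kbz and 63282 SB Kac peaks, so a percentile is not the same measure in both. By rank of fold the Kbz peak stood higher at GTF3C2 (1651 against 2980), GTF3C5 (5887 against 6085) and POLR3A (4928 against 7214). It stood lower at GTF3C1, GTF3C3, GTF3C4, GTF3C6 and BDP1. The Kbz peak was shorter than SB Kac in 7 of 8, all but GTF3C3, against 94.1%. Over the 10 members the median percentile of Kac was 84.8 in control and 92.7 in SB cells (90.4 without GTF3C6). That of Kbz was 85.5 over the 8 members with Kbz over the TSS, which leaves out the lower peaks beside the starts of BRF1 and MAF1. Over coding genes with a peak over the TSS the medians were 83.8, 87.2 and 70.8. The SB Kac peak reached further downstream than upstream in 8 of 10 members, against 59.4% of coding genes, the control Kac peak in 5 of 10, against 53.8%, and the Kbz peak in 3 of 8, against 52.2%. Another gene started within 1 kb of the TSS in 5 of 10 members and in 28.6% of coding genes. No list had a replicate against which these differences could be set.

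At a stricter threshold, a −log10 q of at least 5, SB Kac still covered the TSS in 10 of 10 genes, against 49.8% of coding genes. Control Kac then covered it in 7, without GTF3C1, GTF3C3 and MAF1, against 42.4%. Kbz covered it in 7, without BRF1, GTF3C1 and MAF1, against 33.7%. When each list was cut to its 15000 peaks of highest −log10 p, SB Kac covered it in 8, without GTF3C1 and MAF1, against 45.2%.

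In total the windows held 27 control Kac, 35 SB Kac and 22 SB Kbz peaks. BRF1 alone accounted for the higher number in SB Kac, since the other 9 genes held 16 peaks in each Kac list. Of the control Kac peaks 88.9% (24 of 27, Wilson 95% interval 71.9 to 96.1, for counting error only) overlapped an SB Kac peak, and in the other direction 68.6% (52.0 to 81.4) did so. In the whole lists these shares were 64.7% and 72.5%. Kbz was found at 57.1% (40.9 to 72.0) of the SB Kac peaks, against 33.8% in the whole list, and without BRF1 the share was 81.2%. Of the 35 SB Kac peaks 10 lay over a member's canonical TSS. Of those over no annotated start of the member, 2 lay over the canonical TSS of another gene. These were MPV17 in the window of GTF3C2 and RPS24 in that of POLR3A. The whole lists were not matched to the members for position.

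The remaining machinery of Pol III was read from a list of 28 genes. SB Kac covered the TSS in 28, control Kac in 26 and SB Kbz in 24, against 60.4%, 59.1% and 45.8% of all coding genes. Of the 10 further subunits of the enzyme, Kbz covered 8 and SB Kac all 10, the latter at a median percentile of 94.2. POLR3B, the second largest subunit, had SB Kac over the TSS at percentile 98.5, but the control Kac and Kbz peaks ended 13 and 15 bp from it. Among 7 subunits shared with other polymerases, POLR2H lacked Kbz over the TSS by 154 bp. POLR2L had SB Kac only, at percentile 61.4, with control Kac 330 bp and Kbz 248 bp away. The 10 initiation factors, such as TBP, GTF3A and the SNAPC subunits, had all 3 marks over the TSS without exception. SSB, the La protein that binds the ends of new Pol III transcripts, stood at percentiles 65.9, 83.0 and 20.1. The percentile was higher in SB Kac than in control Kac in 18 of 26 of these genes, a share near the 65.6% of all coding genes with both peaks.

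**Figure D4:**
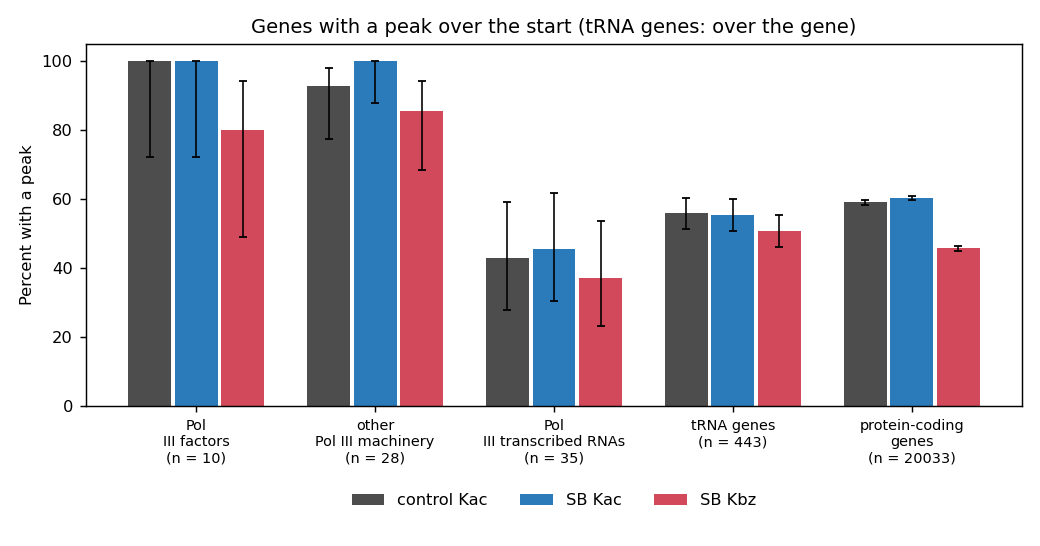
Percent of genes with a peak over the canonical TSS (for tRNA genes, over the gene) in control Kac, SB Kac and SB Kbz, for the 10 genes of the list, the other machinery, the Pol III transcribed RNAs, nuclear tRNA genes and all protein-coding genes. Bars start at 0 and error bars are Wilson 95% intervals for counting error, which treat each gene as a separate observation. The bars of the Pol III transcribed RNAs include 17 5S genes that uniquely mapped reads cannot resolve, and without them 15, 16 and 13 of 18 genes had a peak.

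The genes that Pol III itself transcribes were then looked up. Of 36 listed, 35 were in GENCODE under the symbol used. Counted within 5 kb, 20 had control Kac, 20 SB Kac and 18 SB Kbz. Of all coding genes, with a median length of 27.5 kb, 82.6%, 81.4% and 72.3% had such a peak within 5 kb. The RNAs with an upstream promoter, namely RN7SK, RPPH1, RMRP, RNU6ATAC, the U6 genes RNU6-1, RNU6-2, RNU6-7, RNU6-8 and RNU6-9, and the Y RNA genes RNY1, RNY3 and RNY4, had both Kac lists over the start in 12 of 12 cases and Kbz in 10. RNU6-9 and RNY3 lacked Kbz, by 15 and 568 bp. Control Kac, SB Kac and SB Kbz covered the TSS of 59.1%, 60.4% and 45.8% of coding genes. Whether other genes start under these peaks was not examined, so the peaks cannot be assigned to the RNA genes alone. Neighbouring genes of this group share peaks (RNU6-7 with RNU6-8 in each list, RNY1 with RNY3 in SB Kac), so they are not separate observations. The highest percentile of the group in control Kac was 99.3, at RNU6-7 and RNU6-8. In SB Kac it was that of RN7SK, at 98.9, and in SB Kbz that of RNU6ATAC, at 98.4. RN7SL2, a signal recognition particle RNA gene, had all 3 marks at its start, and RN7SL1 had Kac without Kbz. Among the vault RNA genes VTRNA1-2 had all 3 marks, VTRNA1-1 had SB Kac and VTRNA1-3 Kbz only, and VTRNA2-1 had none at the start. None of the 17 genes of the 5S cluster had a peak over it, and RNA5S15, RNA5S16 and RNA5S17 had Kac peaks within 5 kb. Only uniquely mapped reads were kept, and the near-identical 5S copies cannot be read from such reads, so no level is drawn from their lack of peaks. The same limit applies in part to U6, 7SL and tRNA genes.

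Of 443 nuclear tRNA genes in RefSeq, 248 lay under a control Kac peak, 246 under SB Kac and 225 under SB Kbz. These are 56.0% (51.3 to 60.5), 55.5% (50.9 to 60.1) and 50.8% (46.1 to 55.4). Over the starts of coding genes the shares were 59.1%, 60.4% and 45.8%. The intervals treat each tRNA gene as a separate observation, which clustered genes that can share a peak are not. All 3 marks were found at 193 genes, and 9 had Kbz with no Kac in either condition. On chromosome 6, where tRNA genes are clustered, 102 of 155 had SB Kac and 83 had Kbz. On chromosome 1 it was 17 and 16 of 98.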

How the data were processed

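ChIP-seq peak lists of control Kac, SB Kac and SB Kbz were used. According to the labels and the study's methods, the authors digested chromatin with micrococcal nuclease, aligned reads to hg38 with Bowtie2 2.2.6, kept uniquely mapped reads, removed duplicates with SAMtools 0.1.19 and called broad peaks per library with MACS2 2.1.1. The broad setting and the background track are not given in the sources used here. The deposited fold, a linear ratio to background, was used as a rank within its list. For thresholds the −log10 q values that the authors deposited were used (lowest 1.31, looser than the false discovery rate stated in the methods), with −log10 p for ranks, and the deposited score, an integer for display, was not used. All are averages over a broad peak, so joined weak flanks lower them. Read totals are not in peak lists, so depth is unknown and the precision of each call cannot be given.

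Peaks on 24 chromosome names were kept (3 control Kac peaks were left out), and 0 reached past the end of an hg38 chromosome. Genes, canonical TSSs and exons came from GENCODE 44, and tRNA genes and promoters from RefSeq GRCh38.p14. Overlap meant at least 1 bp. Overlaps were checked on simulated peaks. No test between groups was made, since each group has 1 library. The genes and lists were chosen with earlier results of these data known. Named were all 10 members, machinery genes lacking a peak over the TSS in a list (1 is not reported here), Pol III transcribed genes with a peak nearby, genes starting within 1 kb of a member and the 3 genes nearest to GTF3C6 by percentile. The tRNA genes, the motifs, the examples given for other groups (such as SSB and TBP), and the settings without BRF1 or without GTF3C6 and the count without 5S genes were added after seeing the data. Python 3.11.15, numpy 2.4.6, pandas 2.3.3, scipy 1.17.1 and matplotlib 3.10.9 were used.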

Additional observations from a re-analysis of the deposited data

How the results depend on the processing

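Changing a single setting gave 152 further values for 22 results. In 119 the value stayed within its Wilson interval or, for a count, within 1.5 times of the original, and in 33 it moved. Windows of 0 or 10 kb around the gene moved none by this rule, although members with a Kbz peak fell from 10 to 9 at 0 kb. Merging peaks within 1 kb left all 22 values identical to the original. These 22 are among the 119, and a setting that changed nothing is no check of the results. No paired analysis was possible because the groups hold 1 library apiece, which also leaves no replicate to omit. Depth is unknown and limits every count of peaks.

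At a −log10 q threshold of 5, the members' windows kept 12 peaks of control Kac, 14 of SB Kac and 12 of Kbz, and 78.6% of the SB Kac peaks had Kbz. Coding genes with a peak over the TSS fell to 42.4%, 49.8% and 33.7%, in that order of lists. With a −log10 q of at least 2 these shares were 58.4%, 59.5% and 45.1%, and 100% of the Kbz peaks at members had SB Kac. With 15000 peaks from each list, control Kac covered the TSS of 6 members, SB Kac of 8 and Kbz of 7. The windows held 9, 12 and 13 peaks in the same order. Overlap with SB Kac was then 100% for control Kac peaks, 91.7% of SB Kac peaks had Kbz, and the shares of coding genes were 35.0%, 45.2% and 39.4%. These settings hold fewer peaks by construction.

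Wider rules for the TSS raised the shares of coding genes by construction. They were 66.5%, 66.8% and 52.9% with any annotated TSS, 68.9%, 68.2% and 57.3% within 1 kb, and 72.8%, 71.9% and 60.3% within 3 kb. Within 1 kb, Kbz was present at all 10 members, BRF1 and MAF1 included, and at all 28 other machinery genes. With any annotated TSS it was present at 8 and 26. Under a minimum overlap of 50%, 37.1% of SB Kac peaks at members had Kbz. Without BRF1 the members held 16 control Kac and 16 SB Kac peaks, and 81.2% of the latter had Kbz.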
